A study of Mus musculus with 12 samples.

Results

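General macrophages, sorted from mouse bone marrow by CD11b and F4/80, were compared between marrow that carried breast cancer metastases and healthy marrow. The comparison used 6 of the 12 RNA-seq libraries of the series, chosen by their sample titles: 3 from metastatic and 3 from normal marrow. The metastatic group came from female Albino B6 mice that had received E0771 cells, a mouse breast cancer line, through the caudal artery at an age of 8 weeks. The normal group came from healthy control mice, and the sources used here name no further genetic change and no drug in either group. The other 6 libraries were niche macrophages, sorted by VCAM1, CD163 and CCR3 from the same kinds of marrow. They entered the model for its estimate of spread and are set beside the general macrophages only in the last comparison. Each replicate came from different mice. All cells were sorted from flushed femur and tibia, so the libraries describe sorted populations and not single cells or macrophages at the tumour's edge.

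CD11b, encoded by Itgam, is an integrin subunit of monocytes, macrophages and granulocytes, and F4/80, encoded by Adgre1, is an adhesion receptor used to mark mouse macrophages. Marrow macrophages descend from monocytes and from resident cells. They clear dying cells and debris, present antigen on MHC class II molecules and take part in bone turnover. Breast cancers spread to bone often, and myeloid cells of the marrow are among the cells that meet the arriving tumour cells.

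Total counts were 15042000 to 20777200 in the 3 normal libraries and 24278100 to 30332400 in the 3 metastatic ones, so depth moved with the group (exact two-sided permutation p = 0.1, the smallest that 3 against 3 allows). Genes with at least 10 counts numbered 9938 ± 590.9 (SD, n = 3) in normal and 11560 ± 1139 (SD, n = 3) in metastatic libraries, and these groups overlapped. Itgam was read at 628.4, 789.5 and 852.3 CPM (counts relative to the scaled library total, the unit of every level below) in normal and at 512.7, 576.3 and 503.2 CPM in metastatic libraries. Adgre1 was read at 145.3, 120.4 and 103.4 CPM in normal and at 70.42, 117.7 and 63.96 CPM in metastatic libraries. Both sorting antigens were therefore transcribed in every library. Transcripts of neutrophils and their precursors were abundant in all 6 libraries as well. Ngp, a neutrophil granule gene outside the naming rule, stood at 5178 CPM or more in each. Of the macrophage markers, Mertk, a receptor for apoptotic cells, did not exceed 5.195 CPM, and Mpeg1, a pore-forming protein, stood at 807.9 CPM or more. Secondary and tertiary granule genes of neutrophils, without Lyz2, summed to at least 27870 CPM in each library. Macrophage markers, without Lyz2, summed to at most 2652 CPM. The libraries therefore held transcripts typical of other myeloid cells, and by these lists neutrophil granule transcripts exceeded those of macrophages. General macrophages is the name that the sample titles give this sort. Fewer cells of a type and less RNA per cell cannot be told apart in such bulk libraries. Replicates 1 to 3 of each group are given in that order below. The p-values rest on the spread between replicate libraries, which was estimated from all 12 libraries.

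Across 12882 tested genes, 6364 had a positive log2 fold change (metastatic minus normal) and the median was -0.01. At an adjusted p under 0.05 in edgeR's quasi-likelihood test, 2 genes passed, 0.0155% of those tested, and both fell in metastatic marrow. No gene passed in the higher direction, where 428 genes (3.32%) had an unadjusted p under 0.05, against 232 (1.8%) in the lower direction and 660 (5.12%) in all. DESeq2 called 141 genes (1.09%), 88 higher (0.683%) and 53 lower (0.411%), of which 106 had a mean under 10 CPM. Limma-voom called 5 higher and 18 lower. In 937 genes (7.27%) all 3 metastatic libraries lay above all 3 normal ones, and in 726 genes (5.64%) all lay below. Among genes with at least 10 CPM the shares were 6.62% above and 7.6% below, and among those with at least 50 CPM 5.88% above and 10.1% below. These shares are the background against which each gene list is read. Where a count is given without them, 7.27% above and 5.64% below apply. For every gene other than the 2 called, values are given and no change is claimed. The smallest edgeR adjusted p among the other named genes was 0.189, for Neat1.

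Thrombospondin 1 (Thbs1) fell. It encodes a secreted matrix glycoprotein that restrains blood vessel growth and can release latent TGF-beta. The gene lies on chromosome 2 at 118111876 to 118127133 (GRCm38, plus strand). Its level was 854.3, 825 and 819.8 CPM in normal libraries and 287.5, 242.1 and 275.1 CPM in metastatic ones. The groups were far apart and each was tight. The log2 fold change was -1.64 ± 0.26 (SE; edgeR adjusted p = 0.0306; DESeq2 adjusted p = 1.72e-07). Leaving out any 1 of the 6 libraries raised the edgeR adjusted p to between 0.0582 and 0.332, with log2 fold changes between -1.69 and -1.56, so no gene remained called.

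The other gene that fell, Gm37347, is a transcribed region of GENCODE's TEC class, which has no assigned product. It spans chromosome 1, 40088511 to 40091581 (GRCm38, plus strand), inside Il1r2 (40074079 to 40125231, same strand) and overlaps 0 of that gene's exons, so it is intronic. Gm37347 was read at 541.4, 445.7 and 503 CPM in normal libraries and at 107, 85.37 and 154.4 CPM in metastatic ones. Its log2 fold change was -2.10 ± 0.33 (SE; edgeR adjusted p = 0.0306). When any 1 library was left out, the edgeR adjusted p lay between 0.0582 and 0.332. Il1r2 encodes the decoy receptor of interleukin 1, and its own exons gave 70.67, 39.39 and 107.9 CPM in normal and 49.81, 71.09 and 128.3 CPM in metastatic libraries. Those values overlap, with a log2 fold change of 0.19 ± 0.91 (SE; adjusted p = 1 by edgeR). Because the strand setting of the counting is not given in the sources used here and both genes share a strand, intronic reads of Il1r2 precursor RNA and a separate transcript cannot be told apart.

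**Figure D1:**
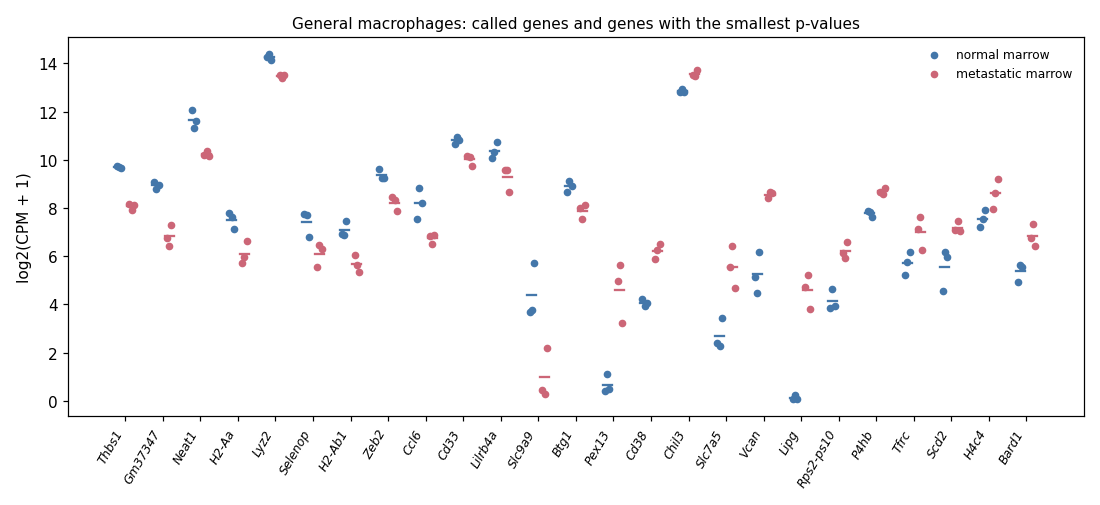
Level of the 2 called genes (Thbs1 and Gm37347) and of the genes with the smallest p-values in each direction, as log2(CPM + 1), with 1 point per library and a bar at the group mean (n = 3). In every gene drawn the 3 metastatic libraries lie on one side of the 3 normal ones, which is how these genes were selected.

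Neat1, a long noncoding RNA that scaffolds nuclear paraspeckles, gave 4326, 2545 and 3149 CPM in normal and 1177, 1319 and 1135 CPM in metastatic libraries. Its groups were separate, with a log2 fold change of -1.46 ± 0.29 (SE; adjusted p = 0.189 by edgeR; DESeq2 adjusted p = 2.72e-05). Malat1, a nuclear RNA of speckles, and Rn7sk, the small RNA that holds back transcription elongation, were chosen after their values were seen. Malat1 gave 4645, 4734 and 5885 CPM against 3316, 3743 and 2656 CPM, and Rn7sk 11370, 11890 and 13190 CPM against 8167, 7416 and 5606 CPM. Neither pair of groups overlapped. Among the 16 TEC transcripts with at least 50 CPM, 15 were negative with a median of -1.004 and 7 were all below, against 10.1% of all genes at that level. Of 33 snoRNA genes there, 26 were negative with a median of -0.40 and 4 were all below, a share near that of all genes at that level. Of 3129 protein-coding genes 1773 were negative with a median of -0.06. Values of RNA integrity were not used here, and their part in this was not tested.

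Genes were then grouped by function, in lists written with earlier results of these data known. Their counts and medians therefore describe the lists and were not tested. Most groups centred near 0, a few were shifted to one side, and the shifts were read from counts of genes and medians. Lists of cell division and protein folding stood above 0, and MHC class II presentation had the lowest median of the functional lists. The high median of ribosome assembly rested in part on sparse genes and on 1 library, as given with its values.

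**Figure D2:**
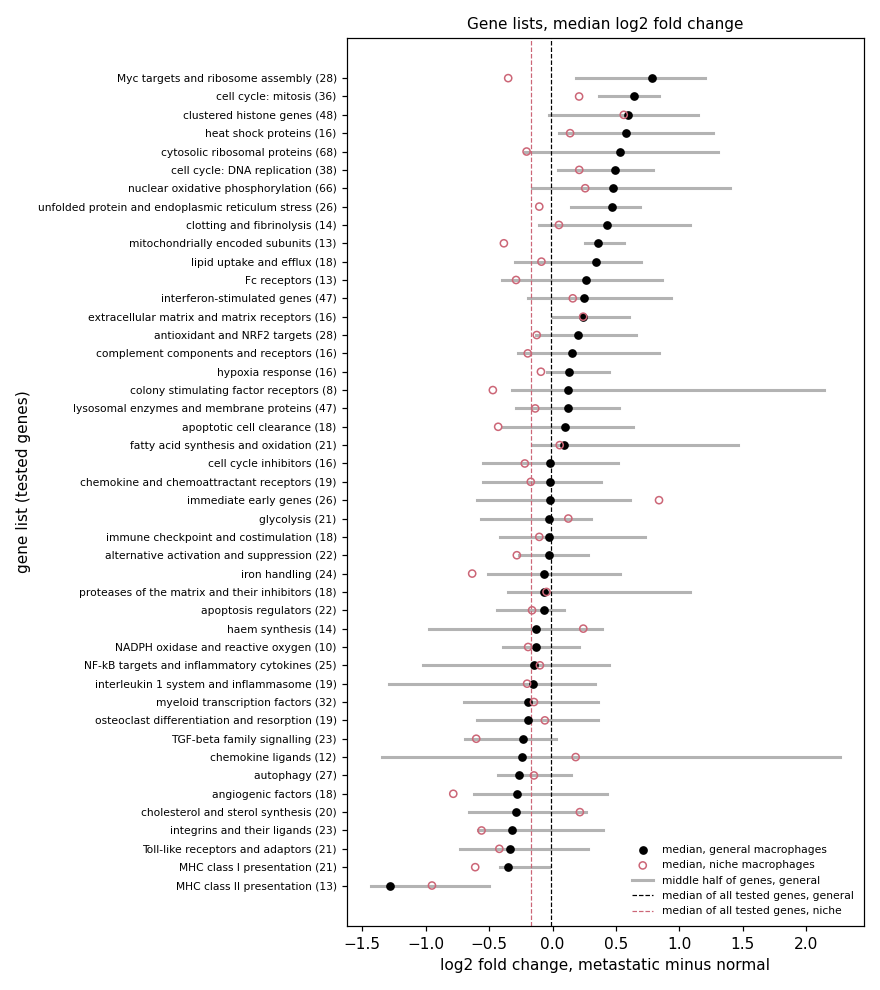
Median log2 fold change (metastatic minus normal) of each functional gene list in general macrophages (filled points, with grey bars from the lower to the upper quartile) and in niche macrophages (open points), with dashed lines at the medians of all tested genes. In general macrophages MHC class II presentation sits at -1.28 and the mitosis list at 0.64.

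Mitotic genes stood higher in metastatic marrow as a group. All 36 tested members of the mitosis list had a positive log2 fold change, with a median of 0.64, against 6364 of 12882 and -0.01 over all tested genes. In 12 of the 36 the groups did not overlap with metastatic above, against 7.27% of all tested genes. None of the 36 had every metastatic library below. When 1 library was left out, 33 to 35 of the 36 stayed positive and the median lay between 0.57 and 0.76. The summed level of the list was 4418, 3848 and 4093 CPM in normal and 6275, 6372 and 6162 CPM in metastatic libraries. Leaving out Mki67, the most abundant member, the sum was 3597, 3150 and 3391 CPM against 5498, 5686 and 4827 CPM. Both sums were separate between the groups. No single gene of the list passed edgeR or DESeq2, and 6 had an unadjusted edgeR p under 0.05.

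Ube2c, which hands ubiquitin to the anaphase-promoting complex, was read at 109.8, 137.6 and 92.97 CPM in normal and at 202.1, 250.4 and 237.5 CPM in metastatic libraries. All metastatic values exceeded all normal ones, with a log2 fold change of 1.02 ± 0.33 (SE; adjusted p = 0.944 by edgeR). Top2a, the topoisomerase that untangles replicated chromosomes, gave 455.5, 460 and 584.9 CPM in normal and 884.2, 789 and 815.9 CPM in metastatic libraries. Its log2 fold change was 0.73 ± 0.24 (SE; edgeR adjusted p = 0.944). Bub1b, a spindle checkpoint kinase, gave 95.95, 75.17 and 107.7 CPM against 228.3, 257.1 and 160.2 CPM, a log2 fold change of 1.21 ± 0.42 (SE; adjusted p = 0.944 by edgeR). These 3 genes separated the groups without exception. Ccna2, encoding cyclin A2, gave 436.1, 530.2 and 441.2 CPM in normal and 983.7, 933.2 and 522.5 CPM in metastatic libraries, where the third metastatic library reached into the normal range. Mki67, the proliferation antigen Ki-67, gave 820.9, 697.7 and 701.8 CPM in normal and 777.4, 686.4 and 1334 CPM in metastatic libraries, and its groups overlapped. The smallest shift in the list was that of Cenpa, the centromeric histone variant, at 0.00 ± 0.40 (SE).

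**Figure D3:**
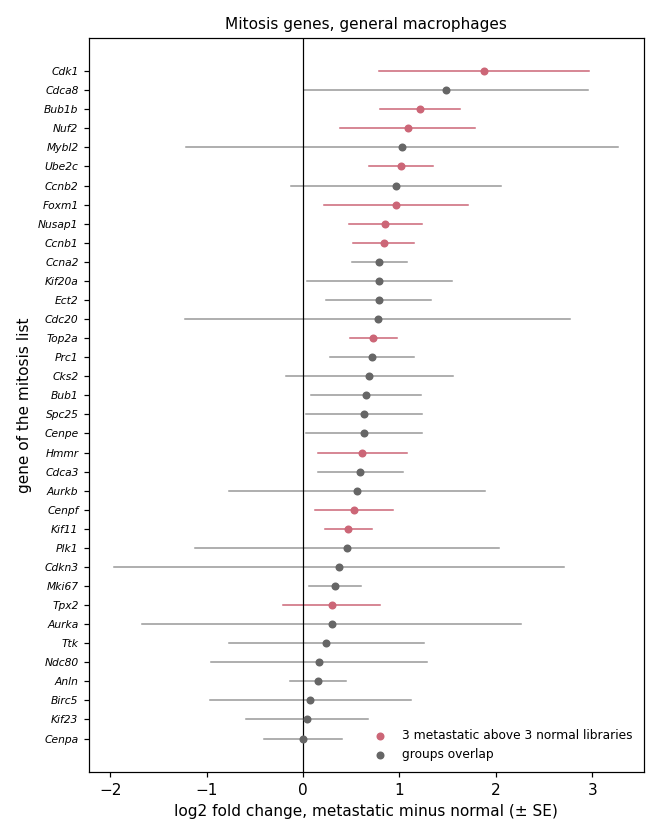
Log2 fold change (metastatic minus normal) with SE for each of the 36 mitosis genes, coloured where the 3 metastatic libraries all exceed the 3 normal ones (12 genes). Every point lies at or to the right of 0, from 0.00 for Cenpa to 1.88 for Cdk1.

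The promoters of the 3 mitotic genes with the smallest p-values are shown because mitotic genes are known to carry CCAAT boxes, bound by NF-Y, together with the CHR element, through which they are repressed in resting cells. The 250 bases before each RefSeq start are printed 5′ to 3′ in gene orientation (GRCm38.p6), with CCAAT and TTTGAA or TTCGAA on either strand in capitals. Ube2c is at chr2:164769679-164769928 on the plus strand, Bub1b at chr2:118597961-118598210 on the plus strand and Top2a at chr11:99024190-99024439 on the minus strand.
Ube2c: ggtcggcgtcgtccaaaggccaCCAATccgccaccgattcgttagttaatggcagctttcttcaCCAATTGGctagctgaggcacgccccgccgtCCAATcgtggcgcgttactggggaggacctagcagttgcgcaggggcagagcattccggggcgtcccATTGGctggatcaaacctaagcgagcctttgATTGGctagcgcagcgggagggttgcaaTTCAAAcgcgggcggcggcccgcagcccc
Bub1b: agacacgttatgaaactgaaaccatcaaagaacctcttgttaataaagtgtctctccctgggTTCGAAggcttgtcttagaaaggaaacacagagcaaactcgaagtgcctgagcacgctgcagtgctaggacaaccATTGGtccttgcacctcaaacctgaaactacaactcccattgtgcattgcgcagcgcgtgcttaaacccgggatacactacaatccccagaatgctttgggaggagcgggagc
Top2a: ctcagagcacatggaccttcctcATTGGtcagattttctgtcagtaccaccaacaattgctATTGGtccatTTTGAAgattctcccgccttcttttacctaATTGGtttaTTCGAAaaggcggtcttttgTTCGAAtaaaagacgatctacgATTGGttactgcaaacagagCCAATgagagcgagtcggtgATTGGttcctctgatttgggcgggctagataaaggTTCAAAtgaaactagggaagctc
The Ube2c window held 6 CCAAT matches and 1 CHR match, that of Bub1b 1 and 1, and that of Top2a 6 and 4. Of the 36 mitosis genes, 31 had an entry in the promoter table, with 33 windows. CCAAT was found in 27 of these windows (81.8%), against 33.8% of all 32851 promoter windows of the same length. The CHR letters were found in 12 of the 33 (36.4%), against 17.1% of all windows. These matches describe letters in the windows and not bound sites.

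Genes of DNA replication were shifted the same way. Of 38 tested, 31 had a positive log2 fold change and the median was 0.49. In 5 the metastatic libraries were all above, against 7.27% of all tested genes, and in none all below. The summed level was 1989, 1957 and 1842 CPM in normal and 2854, 2765 and 2506 CPM in metastatic libraries. The subunits of ribonucleotide reductase, which makes the DNA precursors, showed it most clearly. Rrm1 gave 168.5, 270.5 and 187 CPM in normal and 475.7, 372.8 and 278.6 CPM in metastatic libraries (log2 fold change 0.85 ± 0.33, SE; edgeR adjusted p = 0.944). Rrm2 gave 226.6, 189.5 and 214.8 CPM against 337.9, 463.4 and 291.3 CPM (0.79 ± 0.32, SE; edgeR adjusted p = 0.944). Both genes were separate between the groups. Pola1, the catalytic subunit of the polymerase that starts new strands, ran against the list at 67.1, 87.27 and 29.72 CPM in normal and 51.12, 37.37 and 30.3 CPM in metastatic libraries, which overlap.

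Clustered histone genes are transcribed mainly while DNA is copied. Of 48 tested, 35 had a positive log2 fold change and the median was 0.60. The metastatic libraries were all above in 9 and all below in 1, against 7.27% and 5.64% of all tested genes. Without metastatic replicate 3, 27 were positive and the median was 0.22. The list also holds H1f0, a linker histone made outside DNA replication, which is 1 of the 9. Their summed level overlapped between the groups, at 1719, 2005 and 2304 CPM in normal and 2299, 2827 and 4231 CPM in metastatic libraries. H4c4, a histone H4 gene, gave 146.2, 185.5 and 238.2 CPM in normal and 250.2, 397.8 and 592.7 CPM in metastatic libraries, with the third metastatic library highest. H3c4, a histone H3 gene, ran against the list at 66.21, 44.02 and 39.16 CPM in normal and 24.16, 2.486 and 22.32 CPM in metastatic libraries. Histone genes of 1 class are near-identical copies, so the split of reads between them is uncertain. Bard1, the partner of Brca1 in DNA repair, was in no list and gave 29.19, 48.41 and 46.26 CPM in normal and 107.5, 159.3 and 85.69 CPM in metastatic libraries.

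Inhibitors of the cell cycle were positive in 8 of 16 with a median of -0.02, 2 all above and 2 all below. Their summed level was lower in metastatic libraries, at 2927, 3443 and 3072 CPM in normal and 2758, 2842 and 2631 CPM in metastatic libraries. Btg1, an antiproliferative gene of resting cells, was the member that DESeq2 called. It gave 403.2, 552.2 and 484.3 CPM in normal and 254.6, 186.4 and 282.3 CPM in metastatic libraries, a log2 fold change of -0.99 ± 0.26 (SE; adjusted p = 0.698 by edgeR; DESeq2 adjusted p = 0.00764). Its groups did not overlap.

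MHC class II genes stood lower in metastatic marrow. MHC class II molecules show peptides from engulfed material to CD4 T cells; Ciita switches their genes on, and Cd74 chaperones the chains until the exchange factor H2-DM loads the peptide. Of 13 tested members 12 had a negative log2 fold change, the median was -1.28, and in 3 all metastatic libraries lay below, against 5.64% of all tested genes. None lay all above. The summed level was 810.6, 666.1 and 653.2 CPM in normal and 400.7, 299.8 and 427.9 CPM in metastatic libraries. Without H2-Aa, the most abundant member, the sum was 589.7, 470.1 and 515.6 CPM against 348.5, 238.4 and 330.5 CPM, still without overlap.

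H2-Aa, the alpha chain of I-A, gave 220.9, 196 and 137.6 CPM in normal and 52.29, 61.37 and 97.4 CPM in metastatic libraries. The log2 fold change was -1.39 ± 0.28 (SE; edgeR adjusted p = 0.211; DESeq2 adjusted p = 0.000151). H2-Ab1, the beta chain of the same molecule, gave 120.9, 117 and 178 CPM against 66.15, 48.13 and 39.7 CPM, a log2 fold change of -1.43 ± 0.32 (SE; adjusted p = 0.291 by edgeR; DESeq2 adjusted p = 0.00296). Both chains were separate between the groups and passed DESeq2 but not edgeR. Cd74 gave 63.94, 30.02 and 56.85 CPM in normal and 17, 16.81 and 28.14 CPM in metastatic libraries, with no overlap. H2-DMa, a chain of the peptide exchange factor, gave 165.6, 103.5 and 74.78 CPM against 79.95, 37.28 and 33.99 CPM, where the first metastatic library lay above the lowest normal one. Ciita itself was sparse, at 20.47, 0.1187 and 17.63 CPM in normal and 5.838, 0.226 and 3.622 CPM in metastatic libraries. The single member with a positive value was Lgmn, a lysosomal protease, at 30.49, 1.009 and 7.593 CPM in normal and 63.56, 28.88 and 49.18 CPM in metastatic libraries.

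**Figure D4:**
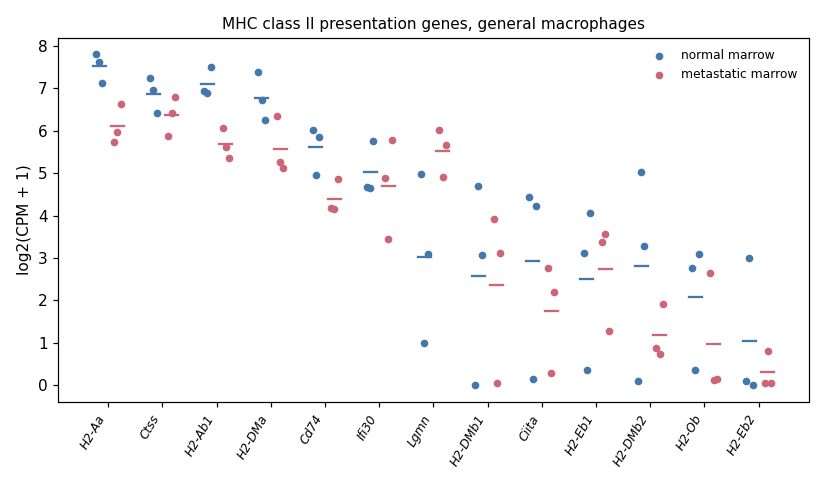
Level of the 13 tested MHC class II presentation genes as log2(CPM + 1), ordered by mean level, with 1 point per library and a bar at the group mean (n = 3). H2-Aa, H2-Ab1 and Cd74 separate the groups with metastatic below, and the sparse members scatter between 0 and their higher values in both groups.

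The promoters of H2-Aa and H2-Eb1 are shown as an MHC class II gene that separated the groups and one that did not. Class II promoters are known for an X box, whose second part can read TGACGTCA, and a Y box that holds CCAAT in reverse, here searched as CTGATTGG. The 250 bases before each RefSeq start are printed 5′ to 3′ in gene orientation (GRCm38.p6), with TGACGTCA, CTGATTGG and CCAAT on either strand in capitals, the last overlapping the Y box. H2-Aa is at chr17:34287824-34288073 on the minus strand and H2-Eb1 at chr17:34305617-34305866 on the plus strand.
H2-Aa: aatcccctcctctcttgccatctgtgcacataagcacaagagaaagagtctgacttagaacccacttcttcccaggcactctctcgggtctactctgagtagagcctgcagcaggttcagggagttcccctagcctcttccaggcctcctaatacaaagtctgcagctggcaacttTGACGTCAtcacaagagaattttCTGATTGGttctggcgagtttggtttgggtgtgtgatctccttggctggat
H2-Eb1: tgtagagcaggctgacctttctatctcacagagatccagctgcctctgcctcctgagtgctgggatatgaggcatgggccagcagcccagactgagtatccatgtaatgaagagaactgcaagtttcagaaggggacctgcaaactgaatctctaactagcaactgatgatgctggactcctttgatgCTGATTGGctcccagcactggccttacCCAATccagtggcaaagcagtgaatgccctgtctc
The Y box letters were found in both windows, and TGACGTCA in that of H2-Aa. Of the 13 MHC class II genes, 10 had an entry in the promoter table, with 12 windows. CTGATTGG was in 3 of the 12 (25%) and in 3.83% of all promoter windows, and TGACGTCA was in 1 of the 12 and in 1.55% of all. CTGATTGG was also in 10 of the 33 mitosis windows (30.3%) and in 18.9% of the DNA replication windows, so it was not particular to class II genes. H2-Eb1 gave 7.692, 0.2966 and 15.59 CPM in normal and 9.414, 10.89 and 1.427 CPM in metastatic libraries, so the Y box letters were present in a gene whose groups overlapped as well as in one whose groups did not.

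MHC class I presentation was less shifted, with 16 of 21 genes negative and a median of -0.35, 2 genes all above and 1 all below. Restricted to members at 50 CPM or more, its median was -0.004. The summed level overlapped, at 2090, 2151 and 2259 CPM in normal and 1949, 1875 and 2376 CPM in metastatic libraries. Calr, an endoplasmic chaperone of the class I loading complex, ran the other way, at 256.3, 292.7 and 328.5 CPM in normal and 396.9, 427.4 and 346.9 CPM in metastatic libraries.

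Several myeloid transcription factors stood lower. Of 32 tested, 20 had a negative log2 fold change and the median was -0.19, or -0.08 without normal replicate 3. In 7 of the 32 all metastatic libraries lay below, against 5.64% of all tested genes, and in 1 all lay above. Restricted to the 26 members at 10 CPM or more, the median was -0.37. Their summed level was 3251, 2540 and 2767 CPM in normal and 2099, 2018 and 2026 CPM in metastatic libraries. Zeb2, a repressor needed for monocyte and macrophage identity, gave 791.1, 615.3 and 598.5 CPM in normal and 349.4, 323.1 and 234.7 CPM in metastatic libraries (log2 fold change -1.14 ± 0.27, SE; edgeR adjusted p = 0.563; DESeq2 adjusted p = 0.00714). Irf4, a factor of antigen-presenting myeloid cells and of lymphocytes, gave 57.55, 29.43 and 43.76 CPM against 5.364, 9.491 and 8.416 CPM (-2.49 ± 0.66, SE; edgeR adjusted p = 0.711; DESeq2 adjusted p = 0.00183). Both were separate between the groups by a wide margin. Maf, a factor of mature macrophages, gave 31.18, 12.22 and 16.09 CPM in normal and 8.684, 7.683 and 10.21 CPM in metastatic libraries. Bach1, a haem-sensing repressor, gave 554.9, 602.4 and 513.2 CPM against 385.7, 265.1 and 329.7 CPM. Neither passed edgeR or DESeq2, and the groups of both were separate.

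Lists of ribosome assembly, ribosomal proteins and oxidative phosphorylation had positive medians. Of 28 tested genes of ribosome assembly and Myc targets, 24 had a positive log2 fold change and the median was 0.79, with 4 all above and none all below. That median rests in part on sparse genes, since the 17 members with at least 10 CPM had a median of 0.24. Without metastatic replicate 3 the median of the list was 0.24 as well. Its summed level was 370.6, 484.8 and 462.1 CPM in normal and 641.1, 593.4 and 630 CPM in metastatic libraries. Npm1, nucleophosmin, a chaperone of ribosome assembly, gave 43.41, 34.41 and 38.71 CPM in normal and 74.36, 76.47 and 61.29 CPM in metastatic libraries, without overlap (edgeR adjusted p = 1). Genes of cytosolic ribosomal proteins were positive in 48 of 68 with a median of 0.53. Of the 68, 7 were all above, near the 7.27% of all tested genes, and without metastatic replicate 3 the median was 0.30. Their summed level was 1740, 1557 and 1543 CPM in normal and 1826, 1963 and 2355 CPM in metastatic libraries. Ribosomal protein genes share reads with their many pseudogenes, so single members are uncertain; Rps2-ps10, such a pseudogene, gave 13.46, 24.32 and 14.34 CPM against 69.14, 59.61 and 95.75 CPM.

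Nuclear genes of oxidative phosphorylation were positive in 46 of 66, with a median of 0.47. In 8 the metastatic libraries were all above, against 7.27% of all tested genes, and in none all below. Of the 32 members at 10 CPM or more 4 were all above, against 6.62% of all genes at that level. The summed level was 1254, 1192 and 1143 CPM in normal and 1703, 1707 and 1846 CPM in metastatic libraries, and the groups were separate. Atp5b, the catalytic subunit of ATP synthase, gave 116.6, 65.02 and 54.65 CPM in normal and 142.8, 111.4 and 223.4 CPM in metastatic libraries, where the second metastatic library lay below the highest normal one. The 13 mitochondrially encoded genes were all positive, with a median of 0.36, but 1 library set this. Normal replicate 1 held 0.0846% of its counts in mitochondrial genes, while the other 5 general libraries held 0.353% to 0.3998%. Without that library the median of the 13 genes was -0.06. mt-Nd1, a subunit of complex I, gave 85.23, 421.5 and 430.3 CPM in normal and 463.2, 461.5 and 371.8 CPM in metastatic libraries.

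Genes of endoplasmic reticulum folding were positive in 22 of 26, with a median of 0.47. The metastatic libraries were all above in 6 and all below in 1, against 7.27% and 5.64% of all tested genes. P4hb, a protein disulfide isomerase, gave 235.9, 225 and 197.2 CPM in normal and 410.8, 381.1 and 451.7 CPM in metastatic libraries, a log2 fold change of 0.92 ± 0.28 (SE; adjusted p = 0.944 by edgeR). Pdia3, another such isomerase, gave 192.4, 90.35 and 155.7 CPM against 277.6, 263.9 and 204.3 CPM. Xbp1, a transcription factor of the unfolded protein response, gave 226.6, 231.5 and 155 CPM against 295.2, 332.5 and 263 CPM. The groups of all 3 genes were separate. Syvn1, a ubiquitin ligase that clears misfolded proteins, ran the other way at 63.46, 77.18 and 75.23 CPM in normal and 55.97, 30.01 and 49.1 CPM in metastatic libraries. Heat shock proteins were positive in 12 of 16 with a median of 0.58, 3 all above and 1 all below. The median was 0.94 without normal replicate 1 and 0.42 without normal replicate 2, and their summed levels overlapped at 1144, 1324 and 1075 CPM in normal and 1533, 1589 and 1135 CPM in metastatic libraries. Hsp90aa1, a cytosolic chaperone, gave 147.6, 158.2 and 155.5 CPM against 273.5, 217.6 and 230.7 CPM.

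Several of the 12 increases with the smallest p-values encode proteins of transport, lipid metabolism or peroxisomes; they are set together here only by function. Slc7a5, a transporter of large amino acids, gave 4.258, 3.856 and 9.991 CPM in normal and 45.57, 83.97 and 24.7 CPM in metastatic libraries (log2 fold change 3.09 ± 0.80, SE; edgeR adjusted p = 0.698; DESeq2 adjusted p = 0.00541). Tfrc, the transferrin receptor that brings iron into dividing cells and erythroblasts, gave 36.54, 53.16 and 71.88 CPM in normal and 138.8, 196.5 and 75.7 CPM in metastatic libraries. Scd2, which desaturates fatty acids, gave 22.6, 71.73 and 61.04 CPM against 134.3, 173 and 130.4 CPM. Only Slc7a5 of these 3 passed DESeq2, and none passed edgeR. Lipg, an endothelial-type lipase, did not exceed 3 counts, the floor, in any normal library. It was read at 25.21, 36.34 and 13.14 CPM in metastatic marrow, a mean 140-fold above the floor (edgeR adjusted p = 0.856, DESeq2 adjusted p = 1.39e-06). Ratios to the floor, here and below, cover counting error only and not the spread between libraries, so they give no minimum effect. Pex13, a peroxisomal import protein, gave 0.3434, 1.187 and 0.3996 CPM in normal and 30.47, 48.67 and 8.416 CPM in metastatic libraries (edgeR adjusted p = 0.211; DESeq2 adjusted p = 1.46e-07). Fatty acid metabolism had a median near 0 (12 of 21 positive, 0.09), but 7 of its 21 genes were all above, against 7.27% of all tested genes, and none all below. Its summed level was 837.8, 798.5 and 788.7 CPM in normal and 964.5, 950.9 and 994.6 CPM in metastatic libraries, without overlap. Glycolysis (10 of 21 positive, median -0.03), cholesterol synthesis (8 of 20, -0.29) and the hypoxia response (12 of 16, 0.13) had sums that overlapped. Slc2a3, a glucose transporter, was lower at 685.2, 680.2 and 643 CPM in normal and 317.6, 438.1 and 529.3 CPM in metastatic libraries (edgeR adjusted p = 0.944).

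Markers of monocyte, macrophage and granulocyte stages did not move as a block. The summed macrophage markers were 22450, 24020 and 20860 CPM in normal and 13480, 12610 and 13510 CPM in metastatic libraries, and 87.6% of that sum was Lyz2. Without Lyz2 the sum was 2652, 2546 and 2619 CPM against 1801, 1897 and 1752 CPM, again without overlap. Of the 18 genes, 11 were negative, 3 all below and 1 all above, with a median of -0.19, which was -0.44 without metastatic replicate 3 and -0.07 without metastatic replicate 2. The 10 members at 10 CPM or more had a median of -0.53. Lyz2, lysozyme M of macrophages and granulocytes, gave 19800, 21480 and 18240 CPM in normal and 11680, 10710 and 11760 CPM in metastatic libraries (log2 fold change -0.80 ± 0.16, SE; edgeR adjusted p = 0.211; DESeq2 adjusted p = 3.24e-07). Mpeg1, a pore-forming protein of macrophages, gave 1535, 1415 and 1357 CPM against 975.4, 987.7 and 807.9 CPM. Cd14, the coreceptor for endotoxin, ran the other way: it was at or under 0.1998 CPM in normal libraries and at 10.58, 9.536 and 18.4 CPM in metastatic ones (DESeq2 adjusted p = 0.000682; edgeR adjusted p = 0.944).

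The monocyte markers summed to 15100, 15420 and 14660 CPM in normal and 19260, 19090 and 20870 CPM in metastatic libraries. Chil3 made up 56.7% of that sum, and without it the groups overlapped. Chil3, the chitinase-like protein Ym1 of monocytes, neutrophil precursors and alternatively activated macrophages, gave 7238, 7944 and 7254 CPM in normal and 11720, 11440 and 13650 CPM in metastatic libraries. Its log2 fold change was 0.71 ± 0.18 (SE; edgeR adjusted p = 0.698; DESeq2 adjusted p = 0.00563). Vcan, the matrix proteoglycan versican of classical monocytes, gave 34.48, 21.3 and 71.93 CPM against 338, 401 and 395.5 CPM, a log2 fold change of 3.15 ± 0.85 (SE; adjusted p = 0.755 by edgeR). A fit of the 6 general libraries alone called Vcan. Cx3cr1, the fractalkine receptor of patrolling monocytes and resident macrophages, gave 140.2, 118.5 and 127.4 CPM in normal and 9.487, 0.1356 and 10.28 CPM in metastatic libraries. It was lower without overlap (log2 fold change -4.28 ± 1.43, SE; edgeR adjusted p = 0.944; DESeq2 adjusted p = 0.0259). Ccr2, the chemokine receptor of classical monocytes, overlapped at 1528, 1715 and 1474 CPM in normal and 1579, 1172 and 746.6 CPM in metastatic libraries. The 17 tested monocyte markers had 9 positive values and a median of 0.06.

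Granule genes are made at different stages of neutrophil development. The primary granule list holds genes of promyelocytes, among them Serpinb1a and Ms4a3, whose products are not granule proteins. Its genes were positive in 6 of 6 with a median of 0.55. In 5 of the 6 every metastatic library lay above, against 7.27% of all tested genes. Elane, neutrophil elastase, gave 148.8, 115.5 and 173 CPM in normal and 255.5, 263.1 and 175.2 CPM in metastatic libraries. Serpinb1a, an inhibitor of such proteases, gave 477, 585 and 481.9 CPM against 792.1, 747.9 and 658.6 CPM. Mpo, myeloperoxidase, gave 599, 436.3 and 446.7 CPM against 493.3, 691 and 570.4 CPM. Its groups overlapped, with a log2 fold change of 0.24 ± 0.28 (SE). No gene of the list passed edgeR or DESeq2. Secondary and tertiary granule genes, made later, were negative in 10 of 17 with a median of -0.15, and their sums overlapped. Their median was -0.04 without metastatic replicate 1, and the difference between the granule lists was not tested. The 17 tested mature neutrophil markers were positive in 9, with a median of 0.03, 4 all below and 1 all above. Their summed level was lower, at 8214, 9191 and 8248 CPM in normal and 6154, 7061 and 7643 CPM in metastatic libraries. Without S100a8, 38.9% of the sum, the groups overlapped. S100a9, an abundant calcium-binding protein of neutrophils, gave 601, 689.4 and 483.3 CPM in normal and 507.4, 687.5 and 899.6 CPM in metastatic libraries, which overlap. The members that ran against the median with the smallest p-values were receptors. Cxcr2, the receptor for neutrophil-attracting chemokines, gave 388.7, 429.9 and 419.5 CPM in normal and 193.6, 284.6 and 226.4 CPM in metastatic libraries. Csf3r, the receptor for G-CSF, gave 653.8, 355 and 480.7 CPM against 196, 299.3 and 274.7 CPM. Both were separate between the groups at an edgeR adjusted p = 0.944.

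Cell type markers were therefore not constant beside the gene groups above. The mitosis and primary granule sums both stood higher in metastatic libraries, and the MHC class II, dendritic cell, macrophage and mature neutrophil marker sums lower. Dendritic cell markers, for which MHC class II genes are typical, summed to 214.8, 123.5 and 141.4 CPM in normal and 67.76, 95.58 and 56.27 CPM in metastatic libraries. Cd209a, a lectin of monocyte-derived dendritic cells, gave 12.29, 26.88 and 21.13 CPM in normal libraries, a mean 170-fold above the floor. It was at or under that floor of 3 counts in every metastatic library. Of the 11 tested members 6 were positive and 5 negative, and the median was 0.47, opposite in sign to the sum. Clec9a, Bst2 and Ccr7 ran upward, with log2 fold changes of 6.61, 2.07 and 1.28, and none of them passed edgeR. Only 2 of the 11 had at least 10 CPM, and neither of these was positive. Tcf4, a factor of plasmacytoid dendritic cells, made up 70.9% of the sum. Without Tcf4 the sums were 45.4, 53.81 and 42.16 CPM against 15.87, 22.14 and 24.41 CPM, still without overlap. Batf3 was not analysed here. B and plasma cell markers, which include other users of class II, had overlapping sums of 1253, 1304 and 1098 CPM against 997.1, 1276 and 1301 CPM; 12 of 18 members were negative. Pax5, the B cell identity factor, gave 6.593, 16.61 and 9.891 CPM in normal and 0.6203, 0.5875 and 6.586 CPM in metastatic libraries. Whether the makeup of the sorted cells accounts for any of these differences was not tested.

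**Figure D5:**
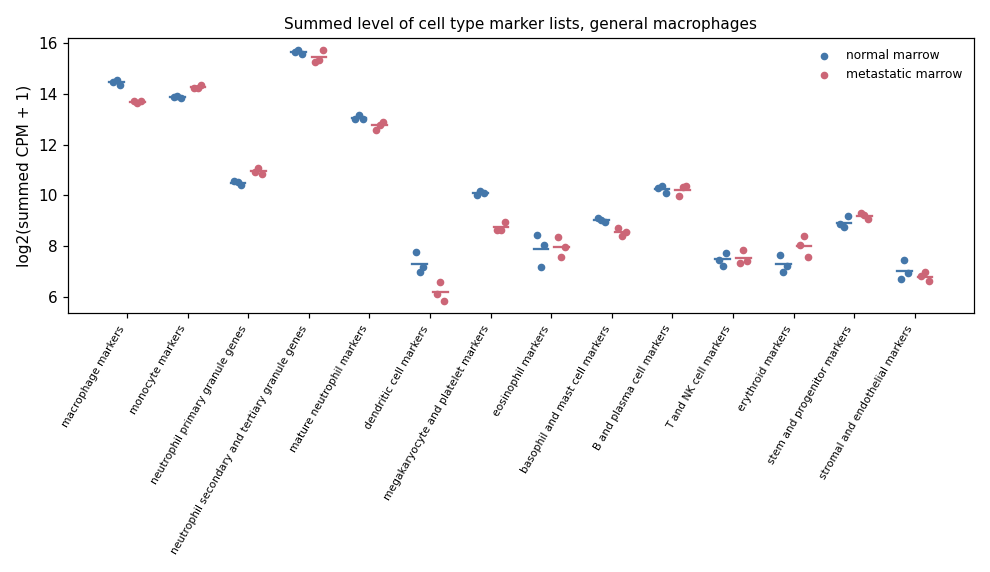
Summed level of cell type marker lists as log2(summed CPM + 1), with 1 point per library and a bar at the group mean (n = 3). Macrophage, dendritic cell and megakaryocyte marker sums lie lower in metastatic libraries, primary granule sums lie higher, and T and NK cell, eosinophil and stromal sums overlap.

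Sums of other cell types followed no common direction. Basophil and mast cell markers summed to 552.3, 521.8 and 490.4 CPM in normal and 416.4, 338.3 and 372.1 CPM in metastatic libraries. They were all below, 71% of the sum was Il6ra, and without it the sums overlapped. Megakaryocyte and platelet markers summed to 1034, 1149 and 1100 CPM in normal and 395.1, 389.5 and 496.8 CPM in metastatic libraries, of which Thbs1 made up 72.4%. Without it the sums overlapped, at 179.7, 324.2 and 279.9 CPM against 107.6, 147.3 and 221.7 CPM. Gp5, a platelet glycoprotein, was at 0 in all 6 libraries, and Gp6 and Treml1 were not analysed here. Erythroid markers summed to 198.7, 126.1 and 146.1 CPM against 264.3, 333.9 and 187.2 CPM, and overlapped. DESeq2 called 2 of the 25 tested members, both higher and sparse. Hba-a2, an alpha globin gene, gave 0.4808, 0.356 and 0.2997 CPM in normal and 3.539, 5.92 and 17.09 CPM in metastatic libraries (DESeq2 adjusted p = 0.0302; edgeR adjusted p = 0.944). Slc4a1, the anion exchanger of red cells, gave 0.3434, 0.4746 and 0.5995 CPM against 4.196, 0.4519 and 4.025 CPM (DESeq2 adjusted p = 0.0391; edgeR adjusted p = 0.711), and its groups overlapped. The part of erythroid transcripts in the levels of Tfrc and of the mitosis genes was not tested. Tumour and epithelial markers other than Lcn2, a neutrophil granule gene as well, summed to 15.32, 7.95 and 30.62 CPM in normal and 19.16, 8.587 and 19.54 CPM in metastatic libraries, and 10 of the 20 listed, Krt18 and Krt19 among them, were at 0 or not analysed here. By these markers the groups overlapped.

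Lists of inflammatory signalling differed in direction. The interleukin 1 and inflammasome list was negative in 12 of 19, with a median of -0.15 (-0.45 to -0.09 when 1 library was left out) and 4 all below against 1 above. Its summed level was 1006, 1436 and 1405 CPM in normal and 837.8, 947.8 and 883.6 CPM in metastatic libraries. Il1rn, the secreted antagonist of interleukin 1, gave 193.4, 407.9 and 272.4 CPM against 93.34, 136.4 and 70.84 CPM (log2 fold change -1.54 ± 0.45, SE; edgeR adjusted p = 0.944; DESeq2 adjusted p = 0.0703). Il1b, the cytokine itself, gave 122.7, 156.4 and 196.7 CPM against 27.18, 75.74 and 82.03 CPM. The agonist and its antagonist were thus both lower, each without overlap. Toll-like receptors and adaptors were negative in 14 of 21 with a median of -0.34 (-0.21 without normal replicate 3). Of these genes, 3 were all below and 2 all above, against 5.64% and 7.27% of all tested genes. The 2 members with an unadjusted edgeR p under 0.05 were both higher. Irak4, the kinase that relays Toll-like receptor signals, gave 115.9, 71.49 and 105.9 CPM in normal and 26.16, 21.24 and 71.35 CPM in metastatic libraries. Interferon-stimulated genes were positive in 30 of 47 with a median of 0.25 (0.07 without metastatic replicate 1). Among them 3 were all above and 2 all below, near the 7.27% and 5.64% of all tested genes. Ifit1, an antiviral effector, gave 32.35, 28.77 and 13.29 CPM against 101.7, 145.2 and 54.92 CPM.

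The 12 decreases with the smallest p-values included 2 inhibitory surface receptors. Cd33, a sialic acid-binding lectin, gave 1630, 1978 and 1808 CPM in normal and 1154, 1119 and 866.6 CPM in metastatic libraries (log2 fold change -0.79 ± 0.20, SE; edgeR adjusted p = 0.698; DESeq2 adjusted p = 0.000683). Lilrb4a, an inhibitory immunoglobulin-like receptor, gave 1066, 1265 and 1696 CPM against 754.7, 770.5 and 410.1 CPM (-1.06 ± 0.27, SE; edgeR adjusted p = 0.698; DESeq2 adjusted p = 0.00872). The wider list of checkpoint and costimulatory genes was evenly split, with 9 of 18 positive and a median of -0.03, 4 all below and 1 all above. Its sum was lower in all metastatic libraries, and without Lilrb4a, 36.4% of it, the sums overlapped. Cd274, encoding PD-L1, ran upward at 1.099, 17.86 and 11.54 CPM in normal and 29.12, 28.74 and 22.43 CPM in metastatic libraries (edgeR adjusted p = 1). Cd38, an enzyme that consumes NAD on leukocytes, gave 17.93, 14.18 and 15.74 CPM in normal and 57.47, 76.6 and 89.79 CPM in metastatic libraries. Its log2 fold change was 2.23 ± 0.47 (SE; edgeR adjusted p = 0.232; DESeq2 adjusted p = 0.00208), and the groups were far apart.

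Chemokines were mostly sparse. Ccl6, a chemokine of resting myeloid cells, gave 185.4, 452.9 and 295 CPM in normal and 114.9, 89.26 and 118.6 CPM in metastatic libraries (log2 fold change -1.53 ± 0.39, SE; edgeR adjusted p = 0.698; DESeq2 adjusted p = 0.00961). Ccl2, which attracts monocytes, was under the floor of 3 counts in every normal library and was read at 6.422, 8.813 and 16.98 CPM in metastatic ones, at least 60.3-fold higher (edgeR adjusted p = 0.944; DESeq2 adjusted p = 0.0197). Selenop, a selenium carrier made by macrophages, gave 213.3, 209.3 and 110.2 CPM in normal and 45.39, 87.72 and 77.79 CPM in metastatic libraries (-1.34 ± 0.29, SE; edgeR adjusted p = 0.232; DESeq2 adjusted p = 0.000622). Slc9a9, an endosomal sodium-proton exchanger, gave 11.95, 12.7 and 51.1 CPM against 0.3649, 0.226 and 3.622 CPM. Trem2, a lipid-sensing receptor of tissue macrophages, was at or under the floor in normal libraries. It was read at 24.41, 13.24 and 14.05 CPM in metastatic ones, a mean 96.8-fold above the floor (edgeR adjusted p = 0.944, DESeq2 adjusted p = 0.000804).

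TGF-beta family genes were negative in 17 of 23 with a median of -0.24 and 3 all below, of which Thbs1 was 1. Smad2, a transducer of TGF-beta, gave 129.7, 91.78 and 72.93 CPM in normal and 53.6, 52.6 and 48.01 CPM in metastatic libraries (edgeR adjusted p = 0.944). Angiogenic factors were negative in 10 of 18 with a median of -0.28 and 4 all below, Thbs1 among them. Without normal replicate 2 that median was 0.15. Integrins and their ligands were negative in 13 of 23 with a median of -0.32 (-0.12 without normal replicate 2), 4 all below and 1 all above. Genes of osteoclast differentiation had a median of -0.20 with 2 all below and 2 all above, and Tnfrsf11a, which encodes RANK, overlapped at 21.09, 2.076 and 1.698 CPM in normal and 0.07298, 0.09039 and 2.561 CPM in metastatic libraries. Lysosomal genes (29 of 47 positive, median 0.12) and iron handling genes (11 of 24, -0.07) showed little shift in their medians. The same held for haem synthesis genes (6 of 14, -0.13) and apoptosis regulators (8 of 22, -0.07). Haem synthesis sums overlapped. Without Alas1, 34.3% of the sum, they were 273.8, 229.7 and 209 CPM against 163, 153.5 and 180.9 CPM, without overlap. Trf, the iron carrier transferrin, was lower at 53.78, 39.1 and 53 CPM against 29.26, 2.892 and 25.14 CPM, and Slc40a1, the iron exporter ferroportin, at 332, 428.3 and 392.5 CPM against 325.6, 220.5 and 265.7 CPM. Neither passed edgeR or DESeq2.

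Niche macrophages provided a comparison of the effect of metastasis in another sort, with no library shared. The metastatic libraries of both sorts carry the same repeat numbers, and the titles do not say whether they shared mice. No gene differed in its effect between the 2 populations by edgeR's interaction test (smallest adjusted p = 0.452), 1016 genes (7.89%) had an unadjusted p under 0.05, and DESeq2 called 410. Thbs1 also fell in niche macrophages, from 372.4, 420.1 and 299.1 CPM in normal to 124, 139.4 and 77.32 CPM in metastatic libraries. The log2 fold change there was -1.68 ± 0.26 (SE; edgeR adjusted p = 0.0438), which differed from that in general macrophages by 0.05 ± 0.36 (SE; edgeR interaction adjusted p = 1). H2-Aa in niche macrophages went from 786.3, 705.9 and 815.1 CPM to 272.6, 287.2 and 268 CPM, a log2 fold change of -1.48 ± 0.28 (SE; adjusted p = 0.0825 by edgeR). The MHC class II list had a median of -0.95 in niche and -1.28 in general macrophages. Chil3 in niche macrophages gave 3173, 4678 and 4608 CPM in normal and 7288, 8680 and 9606 CPM in metastatic libraries. These 3 genes pointed the same way in both sorts.

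For other groups the medians of both populations are set side by side. Mitosis genes had a median of 0.21 in niche and 0.64 in general macrophages, against -0.17 and -0.01 over all tested genes. Ribosome assembly genes had a median of -0.35 in niche and 0.79 in general macrophages, where it was 0.24 among members at 10 CPM or more and 0.24 without metastatic replicate 3. Endoplasmic reticulum folding genes had -0.11 in niche and 0.47 in general macrophages. The differences between these medians were not tested. Slc7a5 gave 137.6, 29.97 and 61.06 CPM in normal and 46.45, 51.92 and 71.3 CPM in metastatic niche macrophages, and its log2 fold change was larger in general macrophages by 3.52 ± 1.08 (SE; edgeR interaction adjusted p = 0.452). Cd38 gave 138.3, 419.6 and 160.1 CPM against 240.6, 91.95 and 177.9 CPM in niche macrophages, a difference in effect of 2.72 ± 0.65 (SE; edgeR interaction adjusted p = 0.452). Neat1 gave 1772, 961.9 and 1506 CPM against 1223, 1676 and 717.7 CPM there, a difference in effect of -1.24 ± 0.40 (SE; edgeR interaction adjusted p = 0.452). None of these 3 differences passed edgeR or limma-voom, which called no gene for the difference. DESeq2 called all 3, with adjusted p = 0.0259 for Slc7a5, 0.00832 for Cd38 and 0.0479 for Neat1, so whether the effect differed between the populations depended on the tool.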

How the data were processed

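Bone marrow cells were sorted and their total RNA was depleted of ribosomal RNA and sequenced, per the labels' protocols. The deposited table holds expected counts per gene symbol for 12 libraries. The authors' counting program, annotation and strand setting are not given in the sources used here. The submitters' processing notes name mm10, Partek, STAR 2.7.3a, DESeq2 1.40.2 and R 4.3.1, with no role or order. Of the deposited estimated counts 73.9% were whole numbers, and all were rounded.

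Here, edgeR 4.0.16 in R 4.3.3 fitted all 12 libraries with 4 group means (TMM scaling, filterByExpr, quasi-likelihood test, Benjamini-Hochberg adjustment over 12882 of 18467 genes, threshold 0.05; common biological coefficient of variation 1.3). The script was tested on simulated data. Alternatives used DESeq2 1.42.0, limma 3.58.1, other scalings and filters, thinning to the smallest total count, and each library left out. A floor of 3 counts was 0.109 to 0.206 CPM in the general libraries, which covers counting error only. Gene types and lengths came from GENCODE M21, promoters from RefSeq GRCm38.p6.

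Named genes were the called genes, the sorting antigens, the 12 increases and 12 decreases with the smallest p-values among genes of at least 10 CPM whose groups did not overlap (leaving out predicted and small RNA genes), up to 4 members of each list with the smallest p-values in the direction of its median and those running against it, and Il1r2 as the host of a called gene. Ngp, Mertk, Mki67, Mpo, Cenpa, Ciita and H2-Eb1 were added after their values were seen. The gene lists and all members were chosen with earlier results of these data known.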

Additional observations from a re-analysis of the deposited data

How the results depend on the processing

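The 2 calls depended on the processing. With library size scaling only, or at least 10 counts in each general library, 0 genes were called. Thbs1 then had log2 fold changes of -1.61 and -1.58 (edgeR adjusted p = 0.0512 and 0.0514). Those of Gm37347 were -2.06 and -2.04 (edgeR adjusted p = 0.0916 and 0.052). DESeq2 called 141 genes (88 higher, 53 lower), limma-voom with sample quality weights 23 (5 higher, 18 lower), and the fit with no low-count filter 5 (1 higher, 4 lower). The 6 general libraries alone gave 3, with 1 higher. Replicate numbers did not pair the libraries (correlations of deviations -0.004, 0.02 and 0.012), and the fit with a replicate block also called 3 genes, 1 higher, with a median of 0.992 for the clustered histone genes. Leaving out each library gave 0 calls in every direction. The difference between populations gave 410 calls by DESeq2 and 0 to 16 without single libraries: 16 without the second listed niche normal library and 1 without metastatic general replicate 2. The cause was not tested.

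Medians of 14 lists (mitosis, DNA replication, histones, ribosome assembly, ribosomal proteins, oxidative phosphorylation, endoplasmic reticulum folding, primary granules, MHC class I and II, myeloid transcription factors, Toll-like receptors, integrins and TGF-beta signalling) kept their sign in all 251 values over these alternatives. Of these values 8 moved by at least the replicate spread, here the SD between replicates of a list's median log2 level. Among the 8 were TGF-beta signalling (-0.399 with no low-count filter) and MHC class I (-0.004 at 50 CPM or more). Ribosome assembly was as well (0.303 with at least 10 counts in each general library, 0.272 at 10 CPM or more). Without single libraries, ribosome assembly ranged from 0.241 to 0.834, MHC class I from -0.325 to -0.1 and TGF-beta signalling from -0.415 to -0.259. Other lists described above changed sign when 1 library was left out: angiogenic factors (-0.378 to 0.15), dendritic cell (-0.046 to 1.331), monocyte (-0.132 to 0.057), mature neutrophil (-0.28 to 0.301) and erythroid markers (-0.25 to 1.134), checkpoint (-0.236 to 0.376), osteoclast (-0.454 to 0.031), cholesterol (-0.5 to 0.025), glycolysis (-0.251 to 0.14), haem synthesis (-0.714 to 0.243), iron handling (-0.036 to 0.133), apoptosis (-0.203 to 0.032), complement (-0.116 to 0.296), cell cycle inhibitor (-0.156 to 0.151) and mitochondrially encoded genes (-0.056 to 0.68). The 10 CPM, 50 CPM and thinned settings were chosen after seeing the data. Depth limits the sparse genes: under the floor of 3 counts, absence and low expression cannot be told apart.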

Other observations

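Autophagy genes, which deliver cell contents to the lysosome, were negative in 18 of 27 in general macrophages of metastatic marrow, with a median log2 fold change of -0.27, 1 gene all above and 1 all below. Without normal replicate 3 that median was -0.04. Their summed level was 2481, 2650 and 2338 CPM in normal and 2229, 2184 and 1904 CPM in metastatic libraries. The groups were separate, and remained so without Gabarap, which made up 53.7% of the sum. Antioxidant and NRF2 target genes were positive in 18 of 28 with a median of 0.20, 5 all above and 1 all below, and in 14 with a median of 0.02 without metastatic replicate 3. Complement genes were evenly split, 8 of 16 positive, while their summed level was 2474, 2530 and 2461 CPM in normal and 1767, 2188 and 2043 CPM in metastatic libraries. C3, the central component, made up 30.5% of that sum.

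Gene length moved with the fold change. Of 3319 genes with at least 50 CPM, 3268 had a length, and over 5 classes of like size, from the shortest to the longest, the median log2 fold changes were 0.04, -0.01, -0.08, -0.09 and -0.14. The part of length in the results above was not tested.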
